A study of Homo sapiens with 4 samples.

Results

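Complex I, NADH:ubiquinone oxidoreductase, takes electrons from NADH, passes them to ubiquinone and pumps protons across the inner mitochondrial membrane. Its core subunits are encoded partly in the nucleus and partly in the mitochondrial DNA. The 7 mitochondrially encoded genes are MT-ND1, MT-ND2, MT-ND3, MT-ND4L, MT-ND4, MT-ND5 and MT-ND6, and their proteins form the core of the membrane arm. They were picked out by gene symbol, with earlier results of these data known, and each symbol was found once among the 36601 genes listed for every library. All 7 passed the floor used here, a mean of 10 UMIs per 1000000 (CPM) over the libraries, together with 8507 genes in all.

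The cells were BEAS-2B, a human bronchial epithelial line made immortal in culture. Control cells were not irradiated. The other cultures received 10 mGy, 100 mGy or 1 Gy of gamma rays from a Cs-137 source at 100 mGy per min and were kept in culture for 30 min before single-cell sequencing. Each dose has 1 library, so there is no replicate, no test between doses was made, and an effect of dose cannot be told apart from a difference between libraries. Droplets give every cell its own barcode and mark each captured mRNA with a unique molecular identifier (UMI), and the deposited values are the numbers of UMIs for a gene in a barcode.

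The libraries held between 11111 and 21514 barcodes and between 211752280 and 285806026 UMIs, and each pair of libraries shared between 76 and 134 barcode sequences. Barcodes held a median of 19771 UMIs in control, 13757 after 10 mGy, 12417 after 100 mGy and 14277 after 1 Gy. Low-UMI barcodes, with fewer UMIs than the library median divided by 3, made up 19.6%, 41.4%, 27.4% and 25.4% of the barcodes in the same order. Ribosomal protein genes took 13.9%, 19.97%, 21.8% and 14.0% of the UMIs. Ribosomal share and low-UMI share were both highest in the libraries of 10 mGy and 100 mGy, and their part in the results was not tested. Of 6 epithelial markers, KRT8 (245 to 273 CPM) and KRT18 (219 to 306 CPM) passed the floor, whereas KRT19, KRT5, EPCAM and CDH1 reached at most 2.41 CPM in any library. PTPRC, PECAM1 and HBB, markers of leukocytes, endothelium and erythrocytes, reached at most 0.0803 CPM, and the fibroblast marker COL1A1 lay between 20.5 and 25.6 CPM.

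The mitochondrial genome is transcribed on both strands into long precursors, most of which are cut at the tRNAs between the coding genes. MT-ND6 is transcribed from the light-strand promoter, the only protein gene that is, whereas the other 6 members are parts of the heavy-strand transcript. Heavy-strand mRNAs carry short poly(A) tails that complete the stop codon of several genes, and human MT-ND6 mRNA is known to lack a tail of that kind, whose part in the values here was not tested. Since the library kit primes on poly(A), the last 40 bases of 6 members are shown in mRNA orientation, with the encoded bases of the stop codon in capitals. The sequences and positions were taken from GENCODE 29 on GRCh38 by gene identifier, while the submitters' processing notes name GRCh37.
MT-ND2: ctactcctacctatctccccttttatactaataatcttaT
MT-ND4: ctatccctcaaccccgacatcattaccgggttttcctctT
MT-ND5: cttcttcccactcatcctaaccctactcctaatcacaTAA
MT-ND1: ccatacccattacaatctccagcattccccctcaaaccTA
MT-ND3: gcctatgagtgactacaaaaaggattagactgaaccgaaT
MT-ND6: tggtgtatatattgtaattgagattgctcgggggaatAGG

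MT-ND2, MT-ND3 and MT-ND4 encode 1 base of their stop codon and MT-ND1 encodes 2, whereas MT-ND5 and MT-ND6 encode all 3. MT-ND4L and MT-ND4 share a transcript and overlap by 7 bases, in capitals in the last 40 bases of MT-ND4L and the first 40 of MT-ND4, so that reads over the junction can belong to either gene.
MT-ND4L: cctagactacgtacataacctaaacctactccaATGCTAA
MT-ND4: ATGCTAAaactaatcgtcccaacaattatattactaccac

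On chromosome M the heavy-strand members lie at 3307 to 4262 (MT-ND1), 4470 to 5511 (MT-ND2), 10059 to 10404 (MT-ND3), 10470 to 10766 (MT-ND4L), 10760 to 12137 (MT-ND4) and 12337 to 14148 (MT-ND5). MT-ND6 lies on the other strand at 14149 to 14673, and its 3′ end meets that of MT-ND5 with 0 bases between them. Whether the counting used strand is not given in the sources used here, so reads over a junction of opposite strands cannot be assigned with certainty. The coding sequences are between 297 bases (MT-ND4L) and 1812 bases (MT-ND5) long. G made up between 9.50% and 12.1% of the bases in the 6 heavy-strand members and 35.6% in MT-ND6. The longest run of A inside a coding sequence was 3 to 8 bases in the heavy-strand members and 3 bases in MT-ND6. The files list 0 pseudogenes of these genes, so reads from nuclear copies were not counted apart.

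Together, the 7 genes gave 2844672 UMIs in control, 2430482 after 10 mGy, 1866512 after 100 mGy and 2968079 after 1 Gy. Their summed level was 13368 CPM in control, 8504 CPM after 10 mGy, 7635 CPM after 100 mGy and 14017 CPM after 1 Gy. In CPM, the 10 mGy and 100 mGy libraries were both below the control and the 1 Gy library slightly above it. The direction at 1 Gy depended on the scaling, since the sum of the 6 heavy-strand members was at 0.06 in CPM, -0.051 as a mean over barcodes and -0.43 on unscaled UMIs per barcode, on the log2 scale. The median of all genes was 0.02, 0.005 and -0.47 in the same settings. Unscaled UMIs are not corrected for the depth of a library. Against control, the ratio of the sum was 0.636 (exact 95% interval 0.635 to 0.637), 0.571 (0.570 to 0.572) and 1.05 (1.05 to 1.05). All intervals given here cover counting error only. The other 6 genes encoded in mitochondria, for subunits of complexes III, IV and V, had ratios of 0.809, 0.795 and 0.956 as a sum. Of the UMIs of all 13 mitochondrially encoded protein genes, the complex I genes took 22.6% in control, 18.7% after 10 mGy, 17.3% after 100 mGy and 24.3% after 1 Gy.

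MT-ND2, MT-ND4 and MT-ND5 encode the antiporter-like subunits, which carry proton channels of the membrane arm. MT-ND4 was at 4306 CPM in control, 2932 CPM after 10 mGy, 2653 CPM after 100 mGy and 4638 CPM after 1 Gy. MT-ND2 was at 2796, 1575, 1296 and 2833 CPM in the same order. MT-ND5 was at 2062, 1271, 1077 and 1939 CPM. For all 3 genes the 10 mGy and 100 mGy libraries lay below the other libraries, with the lowest level at 100 mGy in CPM over all barcodes. On the log2 scale the difference from control was -0.55 at 10 mGy and -0.70 at 100 mGy for MT-ND4. It was -0.83 and -1.11 for MT-ND2, and -0.70 and -0.94 for MT-ND5. At 1 Gy the 3 genes differed from control by 0.11 (MT-ND4), 0.02 (MT-ND2) and -0.09 (MT-ND5) in CPM. On unscaled UMIs per barcode MT-ND4 was at -0.38, MT-ND2 at -0.47 and MT-ND5 at -0.58, all past 1.2-fold. In that setting 8265 of all 8507 genes were over 1.2-fold lower at 1 Gy, with a median of -0.47. MT-ND2 was also below the control as a mean over barcodes (-0.087), with median ratio scaling (-0.012) and after thinning (-0.0073). MT-ND4 was at -0.0033 as a mean over barcodes. With median ratio scaling, MT-ND4 at 10 mGy was at -0.25, within 1.2-fold.

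MT-ND1, MT-ND3, MT-ND4L and MT-ND6 encode the part of the membrane arm that joins the peripheral arm, with MT-ND1 lining the ubiquinone channel. MT-ND1 was at 2118 CPM in control, 1055 CPM after 10 mGy, 881 CPM after 100 mGy and 2065 CPM after 1 Gy. It had the lowest ratios of the heavy-strand members at both low doses, 0.498 (0.496 to 0.501) at 10 mGy and 0.416 (0.414 to 0.418) at 100 mGy. At 1 Gy its log2 difference from control was -0.04 in CPM and -0.52 on unscaled UMIs per barcode, where the median of all genes was -0.47. MT-ND4L, with the fewest UMIs of the heavy-strand members, was at 182, 146, 124 and 194 CPM. Its log2 difference from control was -0.32, -0.55 and 0.09. With median ratio scaling it was -0.020 at 10 mGy and -0.17 at 100 mGy, both within 1.2-fold, and on unscaled UMIs per barcode it was -0.40 at 1 Gy. MT-ND4L per 1000 MT-ND4 UMIs, a ratio within each library, was 42.2 in control, 49.7 after 10 mGy, 46.8 after 100 mGy and 41.8 after 1 Gy, so the proportion of these co-transcribed genes differed by less than 1.2-fold between any 2 libraries.

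MT-ND3, which encodes a small subunit at the junction of the arms, stood apart from the other heavy-strand members. Outside complex I, MT-CO2 (log2 -0.14 and -0.11) and MT-CYB (-0.20 and -0.07) were also within 1.2-fold of control at 10 mGy and 100 mGy in CPM. MT-ND3 was at 1585 CPM in control, 1441 CPM after 10 mGy, 1552 CPM after 100 mGy and 1906 CPM after 1 Gy. The log2 difference from control was -0.14, -0.03 and 0.27, so in CPM only the 1 Gy library was past 1.2-fold, with a ratio of 1.202, just over the threshold. The 1 Gy value was within 1.2-fold as a mean over barcodes (0.19), with median ratio scaling (0.23), without barcodes of very high UMI count (0.258) and after thinning (0.262). The sign at the low doses depended on the scaling. With median ratio scaling, MT-ND3 was above the control by 0.16 at 10 mGy and, past 1.2-fold, by 0.35 at 100 mGy on the log2 scale. On unscaled UMIs per barcode it was below the control, at -0.666 for 10 mGy and -0.675 for 100 mGy, both past 1.2-fold, and at -0.22 for 1 Gy. The median of all genes was then -0.83, -1.03 and -0.47. As a share of the complex I UMIs, a measure that needs no scaling between libraries, MT-ND3 made up 11.9% in control, 16.9% after 10 mGy, 20.3% after 100 mGy and 13.6% after 1 Gy.

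MT-ND6 encodes a membrane subunit next to the junction of the arms and was at 319 CPM (316 to 321) in control, 84.9 CPM (83.8 to 85.9) after 10 mGy, 52.0 CPM (51.1 to 52.9) after 100 mGy and 441 CPM (439 to 444) after 1 Gy. The control was thus 3.76-fold above 10 mGy and 6.13-fold above 100 mGy, and the 1 Gy library 1.39-fold above the control. On the log2 scale the differences were -1.91, -2.62 and 0.47, and on unscaled UMIs per barcode the last of these was -0.018 (median of all genes -0.47). Among the 8507 genes, 5 had a lower log2 ratio at 10 mGy and 0 at 100 mGy, while 8503 had a lower one at 1 Gy. MT-ND6 therefore lay near the low edge of all genes at both low doses and near the high edge at 1 Gy, each time relative to the same control library.

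**Figure D1:**
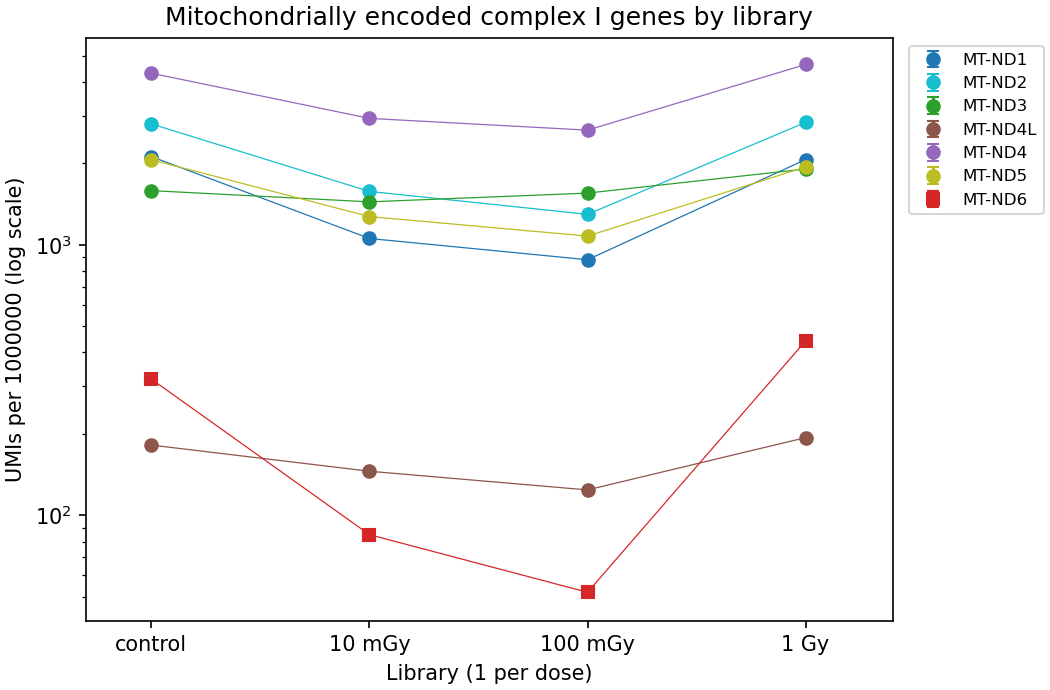
Level of each of the 7 genes, in UMIs per 1000000 on a log axis, in the 4 libraries, with 1 library per dose. Bars are exact 95% Poisson intervals and are smaller than the points. MT-ND6 (red squares) spans 52.0 to 441 CPM, whereas MT-ND3 (green) stays between 1441 and 1906 CPM.

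Divided by the length of the coding sequence, the levels in control were, in falling order, MT-ND3 (4582 CPM per kb), MT-ND4 (3125), MT-ND2 (2683), MT-ND1 (2215), MT-ND5 (1138), MT-ND4L (612) and MT-ND6 (607). MT-ND3 came first and MT-ND4 second in every library. MT-ND6 came last at 10 mGy (162 CPM per kb) and 100 mGy (99.0 CPM per kb), whereas at 1 Gy, with 841 CPM per kb, it was above MT-ND4L with 653. In the control the gap between MT-ND4L and MT-ND6 was small, and with 1 library no spread over samples can be set against it. A 3′ library counts a molecule once, so the division by length itself favours short genes. Undivided, MT-ND4 and not MT-ND3 had the most UMIs in every library, and MT-ND6 was above MT-ND4L in control, so no order of transcript abundance between the genes is read from these values.

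Against control, 6 of the 7 genes were over 1.2-fold lower at 10 mGy and at 100 mGy, all but MT-ND3, and 0 were over 1.2-fold higher. Among all 8507 genes, 53.0% were over 1.2-fold lower and 15.4% over 1.2-fold higher at 10 mGy. At 100 mGy these shares were 58.9% and 14.0%. At 1 Gy, 0 members were over 1.2-fold lower, against 0.846% of all genes, and MT-ND3 and MT-ND6 were over 1.2-fold higher, against 1.28%. On unscaled UMIs per barcode all 7 members, MT-ND3 among them, were lower at 10 mGy and at 100 mGy, beside 7199 and 7663 of all 8507 genes. In that setting 5 members were lower and 0 higher at 1 Gy, beside 8265 and 0 of all genes. Over the 7 members the log2 ratio had a median of -0.70 after 10 mGy, -0.94 after 100 mGy and 0.09 after 1 Gy, beside -0.30, -0.38 and 0.02 over all genes. Most genes were over 1.2-fold lower at both low doses, so nothing particular to the members is read from the count of 6 of 7. Median ratio scaling, which sets the median of all genes near 0, gave 4 members lower and 0 higher at 10 mGy, and 5 lower and 1 higher at 100 mGy. The split over all genes was then 2319 lower and 2600 higher at 10 mGy, and 2468 lower and 2707 higher at 100 mGy, in place of 4507 and 1313, and 5011 and 1190.

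**Figure D2:**
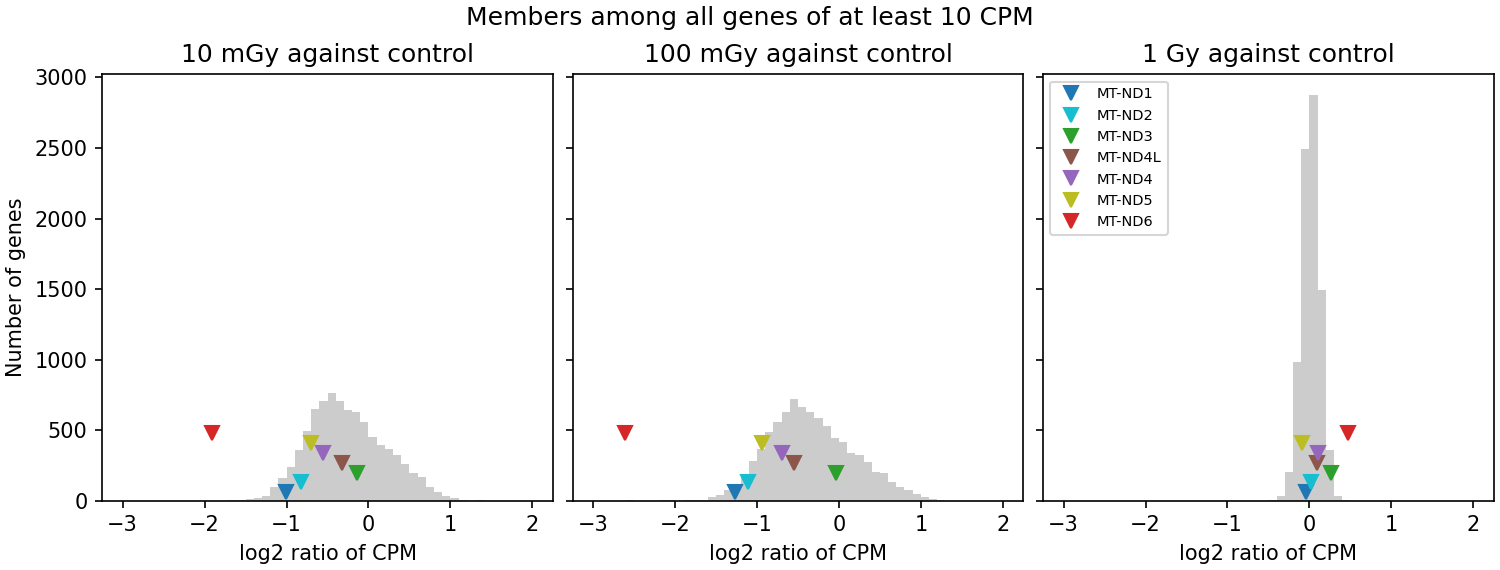
Log2 ratio of CPM to the control for all 8507 genes with a mean of at least 10 CPM (grey, number of genes per bin of 0.1) at the 3 doses. Triangles mark the 7 members at their log2 ratio, and their height carries no value. MT-ND6 (red) is at -1.91, -2.62 and 0.47, beyond the grey bulk of genes in each panel. MT-ND3 at 1 Gy (green, 0.27) and MT-ND1 at 100 mGy (blue, -1.27) lie in the tails of the distribution.

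Between the low doses, MT-ND6 was lower at 100 mGy than at 10 mGy with a ratio of 0.613 (0.599 to 0.626), and MT-ND2 with a ratio of 0.823 (0.819 to 0.827). MT-ND3 was higher in CPM, with a ratio of 1.08 (1.07 to 1.08). In this comparison 2 of 7 members were over 1.2-fold lower and 0 over 1.2-fold higher, beside 12.7% and 1.35% of all genes. MT-ND1, with a ratio of 0.835, was just inside that limit and MT-ND2 just past it. These calls depended on the scaling. With median ratio scaling MT-ND2 was at log2 -0.53 and -0.73 against control at 10 mGy and 100 mGy, within 1.2-fold of each other. On unscaled UMIs per barcode MT-ND1 was at -1.53 and -1.91, past 1.2-fold, and MT-ND3 at -0.666 and -0.675, thus not higher at 100 mGy. The median of all genes was then -0.83 and -1.03.

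The light-strand gene was set against the heavy-strand genes within each library, as MT-ND6 UMIs per 1000 UMIs of the other 6 members. This ratio was 24.4 (24.2 to 24.6) in control, 10.1 (9.95 to 10.2) after 10 mGy, 6.86 (6.74 to 6.98) after 100 mGy and 32.5 (32.3 to 32.7) after 1 Gy. As a ratio of summed UMIs it is not changed by a factor applied to a whole library, but it differs between barcodes of different depth, as described further on. As a ratio of means over barcodes scaled to 10000 UMIs, its log2 difference from control was -1.02 at 10 mGy and -1.59 at 100 mGy, in place of -1.28 and -1.83. Relative to control it was 0.413 (0.407 to 0.419) at 10 mGy, 0.281 (0.275 to 0.286) at 100 mGy and 1.33 (1.32 to 1.34) at 1 Gy. The summed heavy-strand members, at 13049, 8419, 7583 and 13575 CPM, had ratios to control of 0.645, 0.581 and 1.04. In CPM, the difference from control was thus larger for the light-strand gene than for the heavy-strand sum at every dose, by more than the counting error. On unscaled UMIs per barcode this held at 10 mGy and 100 mGy but not at 1 Gy, where MT-ND6 was at -0.018 and the heavy-strand sum at -0.43 on the log2 scale. The median of all genes was -0.47 at 1 Gy in that setting.

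MT-ATP8, a heavy-strand gene for a small subunit of ATP synthase that shares a transcript with MT-ATP6, was close to MT-ND6 in its ratios. Its log2 differences from control were -1.39, -2.47 and 0.23 in order of dose. MT-ATP8 per 1000 MT-ATP6 UMIs was 11.1 in control, 6.54 after 10 mGy, 3.30 after 100 mGy and 16.4 after 1 Gy, unlike the pair of MT-ND4L and MT-ND4 above. MT-ATP6 itself differed by -0.63 at 10 mGy and -0.72 at 100 mGy, so the MT-ATP8 values are not read as the level of that transcript. MT-ATP8 (8366 to 8572) overlaps MT-ATP6 (8527 to 9207), so reads over the overlap can belong to either gene. It was at only 16.5 CPM after 100 mGy. A large difference in UMIs at the low doses was thus also seen for a gene outside the light strand. The other 5 genes encoded in mitochondria, MT-CO1, MT-CO2, MT-CO3, MT-ATP6 and MT-CYB, differed from control by log2 values from -0.72 to -0.07 at the low doses and from -0.33 to 0.09 at 1 Gy.

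**Figure D3:**
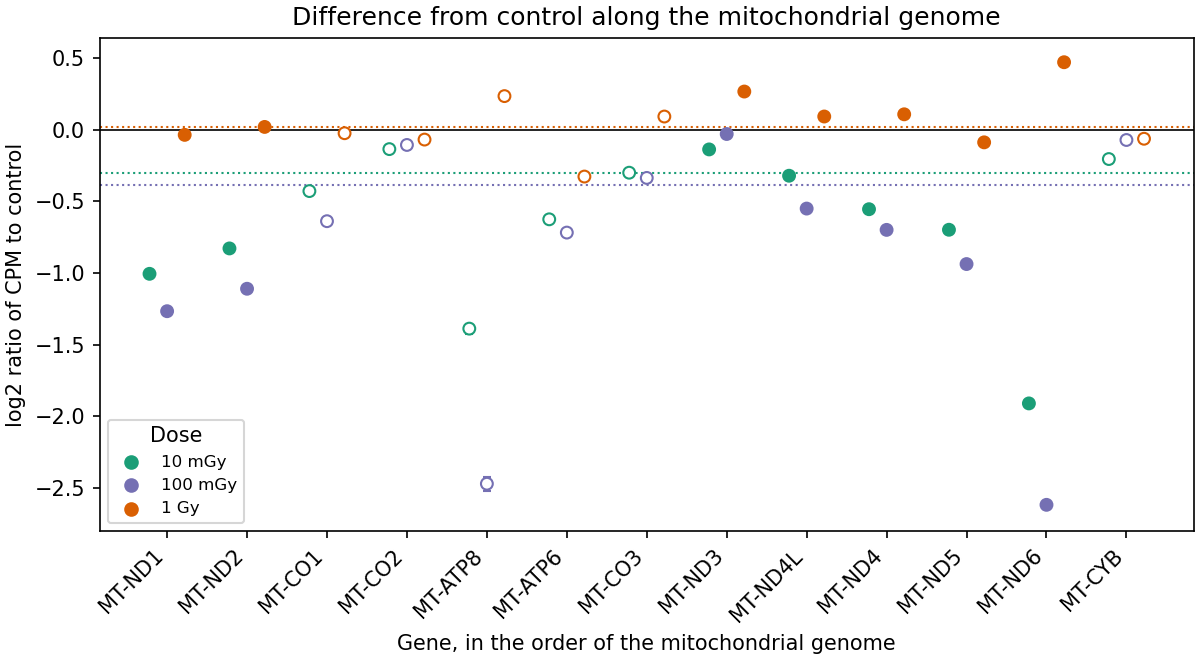
Log2 ratio of CPM to the control for the 13 mitochondrially encoded protein genes in their order along the genome, at 10 mGy (green), 100 mGy (purple) and 1 Gy (orange). Filled points are complex I genes, open points the other 6, bars exact 95% intervals and dotted lines the median of all genes at each dose. MT-ND6 and MT-ATP8 lie lowest at the low doses, and MT-ND3 lies above its neighbours MT-ND4L and MT-ND4.

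Because the libraries differ in depth per barcode, the values were read again within 5 classes of barcodes by UMI count. From control to 1 Gy, the class of 500 to 2000 UMIs held 1230, 7702, 5004 and 3416 barcodes. The class above 40000 UMIs held 446, 454, 156 and 117. A class thus holds unlike parts of the libraries and does not match like cells. Within every class, MT-ND1, MT-ND2, MT-ND4L, MT-ND4, MT-ND5 and MT-ND6 were all below the control class at 10 mGy and at 100 mGy. MT-ND6 had ratios of 0.169 to 0.381 at 10 mGy and 0.0802 to 0.228 at 100 mGy over the classes, with 0.0802 resting on 137 UMIs in the deepest class. At 1 Gy its ratios ran from 0.811 to 1.56, and MT-ND6 was below the control in 2 of 5 classes, those below 5000 UMIs. MT-ND3 was below control in 3 of 5 classes at 10 mGy and in 2 of 5 at 100 mGy, with ratios of 0.534 to 1.63 at 100 mGy. For the heavy-strand sum the ratio at 100 mGy was 0.614 in barcodes of 500 to 2000 UMIs, 0.795 from 2000 to 5000, 0.653 from 5000 to 15000, 0.566 from 15000 to 40000 and 0.369 above 40000. At 10 mGy it was 0.574, 0.823, 0.707, 0.660 and 0.494, thus lower than at 100 mGy in the shallowest class only. At 1 Gy the classes were on both sides of the control, from 0.751 in the shallowest class to 1.10 in the deepest. In the shallowest class MT-ND4 was at 1895 CPM at 100 mGy and 1787 CPM at 10 mGy, and MT-ND5 at 878 and 845 CPM. From 2000 to 5000 UMIs MT-ND4 was at 3155 and 3134 CPM. In the remaining classes both genes were lower at 100 mGy than at 10 mGy, as was MT-ND5 from 2000 to 5000 UMIs.

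MT-ND6 per heavy-strand UMI, relative to the same class of the control, lay between 0.343 and 0.463 at 10 mGy, between 0.217 and 0.372 at 100 mGy and between 1.02 and 1.47 at 1 Gy. Within each library this ratio was highest in the shallowest class and lowest in the deepest. In the control it went from 46.0 per 1000 in barcodes of 500 to 2000 UMIs to 18.9 above 40000 UMIs, and at 100 mGy from 17.1 to 4.12. The low-UMI barcodes of each library had 40.5, 20.4, 15.5 and 47.1 MT-ND6 UMIs per 1000 heavy-strand UMIs from control to 1 Gy, and the remaining barcodes 24.1, 9.63, 6.65 and 32.3. The order of the libraries was the same in both sets of barcodes.

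**Figure D4:**
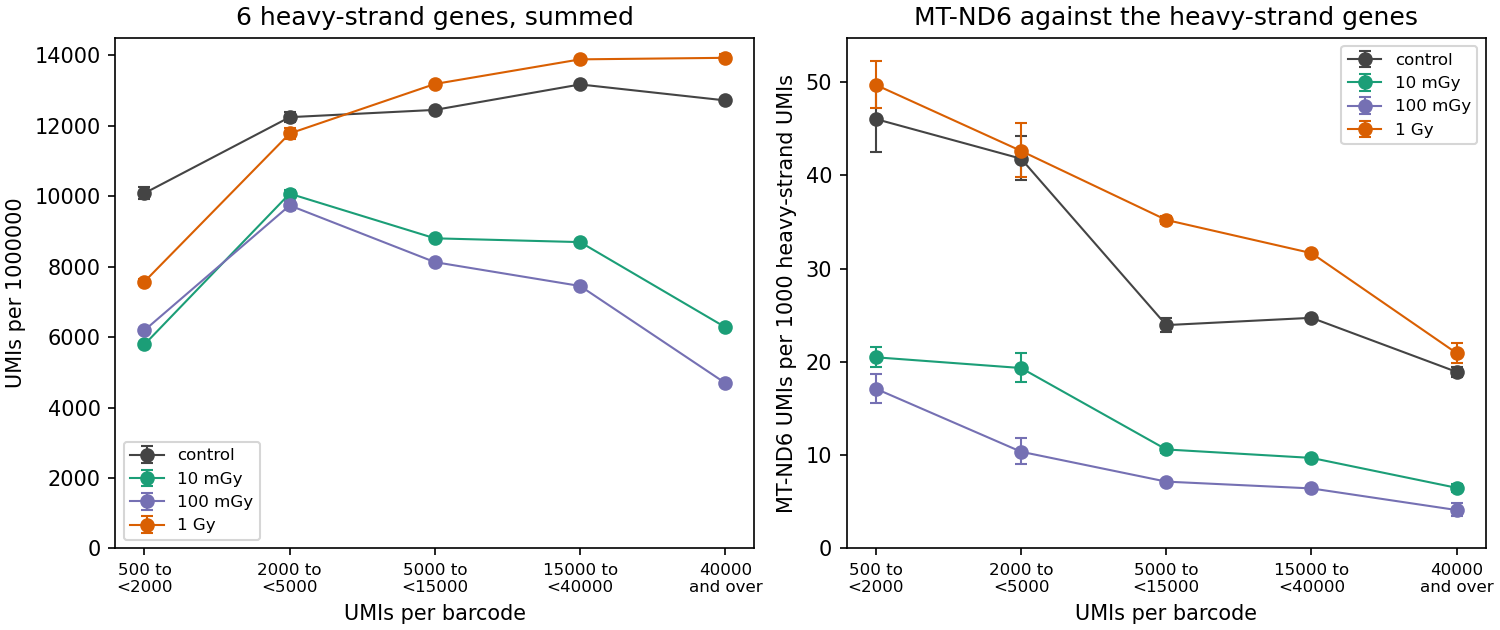
Left, summed level of the 6 heavy-strand members in UMIs per 1000000, and right, MT-ND6 UMIs per 1000 heavy-strand UMIs, in 5 classes of barcodes by total UMI count for the 4 libraries. Bars are exact 95% intervals for counting error. In every class the 10 mGy and 100 mGy libraries lie below the control in both panels. The 1 Gy library lies above the control in the right panel, with overlapping intervals in the classes below 5000 UMIs.

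After each barcode was thinned to 1500 UMIs, MT-ND6 was found in 36.9% of barcodes in control, 13.6% after 10 mGy, 8.33% after 100 mGy and 47.0% after 1 Gy. Without thinning the shares were 86.9%, 51.8%, 39.7% and 82.1%. Barcodes with fewer UMIs were left out of the thinned shares, 932 in control, 2048 after 10 mGy, 4576 after 100 mGy and 2859 after 1 Gy. MT-ND4, the member with the most UMIs, was found in at least 95.1% of the thinned barcodes of every library. MT-ND3 was found in 85.8%, 83.3%, 87.0% and 90.6%. All cells carry mitochondria, so no cell type here lacks these genes and the part of free RNA in such shares has no reference value.

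The study reads the spread of expression over cells as dispersion, the standard deviation over the mean, and asks where it is lower at 100 mGy than at 10 mGy. UMIs were scaled to 10000 per barcode for this measure. MT-ND6 had a dispersion of 128% in control, 215% after 10 mGy, 302% after 100 mGy and 119% after 1 Gy. MT-ND4 had 58.8%, 56.7%, 58.4% and 48.3%, the lowest values of the members. The dispersion was lower at 100 mGy than at 10 mGy for 0 of the 7 members, beside 1.41% of all genes. Without low-UMI barcodes it was lower for 1 member, MT-ND3, with 45.9% at 10 mGy and 45.4% at 100 mGy, and for 0.329% of all genes. After thinning to 1500 UMIs it was lower for 4 members, MT-ND1, MT-ND3, MT-ND4 and MT-ND5, and for 38.2% of all genes. MT-ND6 kept the order control below 10 mGy below 100 mGy in each of these 3 settings, and its mean level per barcode was lower in the same order. Of all barcodes, 13.1% in control, 48.2% after 10 mGy, 60.3% after 100 mGy and 17.9% after 1 Gy held 0 MT-ND6 UMIs. Counting error at such low counts also adds to the dispersion, and its part was not tested, so these values are not read as spread of expression alone.

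**Figure D5:**
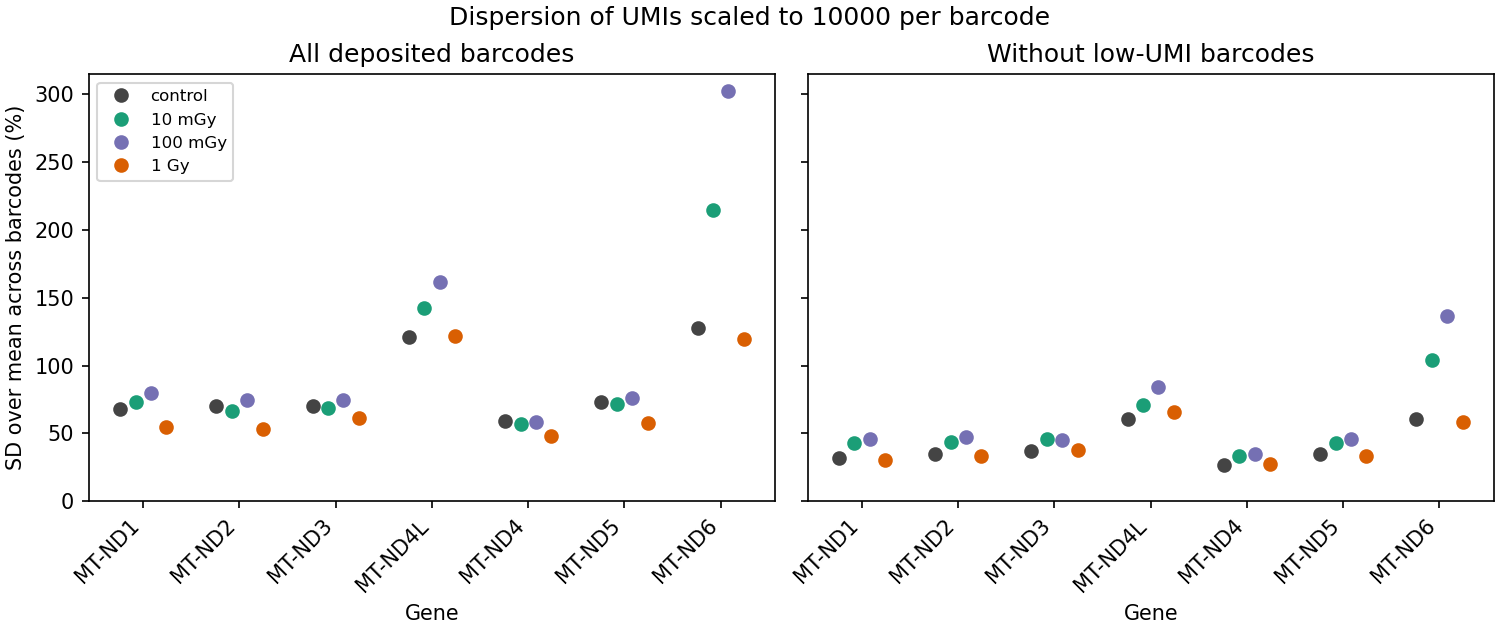
Dispersion (standard deviation over mean, in percent) of the UMIs scaled to 10000 per barcode for each member in the 4 libraries, over all barcodes (left) and without low-UMI barcodes (right). Each point is 1 library. MT-ND6 reaches 302% at 100 mGy over all barcodes, while the heavy-strand members other than MT-ND4L stay at or below 80.0%. At 100 mGy, 60.3% of all barcodes held 0 MT-ND6 UMIs, and the part of counting error was not tested.

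Across barcodes of a library, the heavy-strand members varied together to a moderate degree. Over their 15 pairs, the Spearman coefficient of UMIs per 10000 had a median of 0.34 in control, 0.42 after 10 mGy, 0.38 after 100 mGy and 0.26 after 1 Gy, without low-UMI barcodes. The 6 pairs with MT-ND6 had medians of 0.21, 0.24, 0.18 and 0.13. MT-ND4L with MT-ND4, which share a transcript, had between 0.22 and 0.31. These are descriptions over 8937 to 14477 barcodes that share a library, a scaling by depth and the mitochondrial content of the cell. MT-ND6 and MT-ND4L have the fewest UMIs of the members, and the part of their low counts in these coefficients was not tested.

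Genes outside the 13 were ranked by likeness to the heavy-strand sum, as the root mean square difference of the 3 log2 ratios to the shared control, over 1779 genes with at least 100 CPM. The nearest were HDLBP (an RNA-binding protein), ARHGAP29 (a GTPase-activating protein), LASP1 (an actin-binding protein), EIF4H (a translation initiation factor) and UBE2Z (a ubiquitin-conjugating enzyme), with differences of 0.025 to 0.039. MT-ND4 differed by 0.07 and MT-ND3 by 0.53, so these 5 nuclear genes were nearer to the sum than any single member. For MT-ND6 the nearest of these nuclear genes, looked up after its values were seen, was TRIO (a guanine nucleotide exchange factor) with a difference of 0.67. MT-ATP8 was nearer with 0.34, but its mean of 62.6 CPM lies below that floor, and nuclear genes below the floor were not searched. By correlation across barcodes, genes near the sum were NEAT1, PLOD2, DCBLD2 and ITGB1, with a median coefficient over the 4 libraries of only 0.19 to 0.14.

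The nuclear genes of the same complex were read from lists, with 53.0% of all genes lower and 15.4% higher at 10 mGy, and 58.9% and 14.0% at 100 mGy, as background in CPM. On unscaled UMIs per barcode the background was 7199 of 8507 genes lower and 138 higher at 10 mGy, and 7663 lower and 87 higher at 100 mGy. With median ratio scaling it was 2319 lower and 2600 higher, and 2468 lower and 2707 higher. The 7 nuclear core subunits, which carry the flavin and the iron-sulfur clusters, had 5 genes over 1.2-fold higher and 1 lower at 10 mGy, and 4 higher and 1 lower at 100 mGy. NDUFS7, which holds an iron-sulfur cluster, was at 69.9 CPM in control, 132 CPM after 10 mGy, 123 CPM after 100 mGy and 66.3 CPM after 1 Gy. NDUFS1, the large iron-sulfur subunit, was the core gene that was lower in CPM, with 117, 90.4, 88.4 and 117 CPM. With median ratio scaling 6 core genes were higher and 0 lower at both low doses, with medians of 0.76 and 0.81. The core list had a median log2 ratio of 0.46, 0.42 and -0.02 at the 3 doses, but of -0.07, -0.22 and -0.51 on unscaled UMIs per barcode, where 1 gene was higher and 2 lower at 10 mGy, and 0 higher and 3 lower at 100 mGy.

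Of the 30 accessory subunits, 26 were over 1.2-fold higher and 0 lower at both low doses, with medians of 0.69 at 10 mGy and 0.82 at 100 mGy, which stayed above 0 under each scaling, at 0.16 and 0.18 on unscaled UMIs per barcode. The counts moved with the scaling, to 11 higher and 4 lower at 10 mGy and 9 higher and 4 lower at 100 mGy on unscaled UMIs per barcode (138 and 87 of all 8507 genes higher), and to 30 higher at both doses with median ratio scaling. NDUFB4 had the highest log2 ratio at 10 mGy with 1.07, followed by NDUFB3 with 1.06, and NDUFV3 had the lowest with 0.06, below NDUFB9 with 0.09. At 10 mGy and 100 mGy the medians of the accessory subunits and of the mitochondrially encoded members thus lay on opposite sides of the control and of the median of all genes.

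Of 18 assembly factors, 16 passed the floor, and 6 were higher and 1 lower at 10 mGy, and 7 higher and 2 lower at 100 mGy. Their median was 0.19 and 0.16, and -0.34 and -0.48 on unscaled UMIs per barcode, where 0 were higher at both doses and 10 and 11 lower, beside 7199 and 7663 of all 8507 genes lower. With median ratio scaling 12 were higher at both doses, with 0 lower at 10 mGy and 1 at 100 mGy. NDUFAF4 and DMAC1 had the highest log2 ratios at 10 mGy (0.67 and 0.65), and ACAD9 and NDUFAF5 the lowest (-0.41 and -0.16). Of 27 listed symbols for mitochondrial transcription and RNA handling, all but FASTKD4 were found, and its gene may be listed under another symbol. Of the 26 found, 22 passed the floor. Of these 22, 12 were lower and 2 higher at 10 mGy, and 13 lower and 4 higher at 100 mGy. The list's median of -0.39 and -0.36 was close to that of all genes, and with median ratio scaling it was -0.09 and 0.02. The counts were then 7 lower and 8 higher at 10 mGy, and 6 lower and 9 higher at 100 mGy, whereas on unscaled UMIs per barcode 20 were lower and 0 higher at 10 mGy, and 19 lower and 1 higher at 100 mGy, beside 7199 and 7663 of all 8507 genes lower. TWNK, the mitochondrial DNA helicase, was lowest with a log2 ratio of -1.20 at 10 mGy, followed by PNPT1, the polynucleotide phosphorylase of mitochondrial RNA, with -0.76. SLIRP, an RNA-binding protein, was highest with 0.53, and HSD17B10, a subunit of mitochondrial RNase P, followed with 0.46.

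At 1 Gy the counts of these lists in CPM were small, beside 0.846% of all genes lower and 1.28% higher, and they turned with the scaling. In CPM, 0 of 7 core subunits and 0 of 22 genes for transcription and RNA handling were past 1.2-fold, 1 of 30 accessory subunits was lower with a list median of -0.01, and 1 of 16 assembly factors was higher. On unscaled UMIs per barcode, where 8265 of all 8507 genes were lower and 0 higher, 6 core subunits, 30 accessory subunits, 15 assembly factors and 22 genes for transcription and RNA handling were lower and 0 higher, with medians of -0.51, -0.50, -0.44 and -0.51. The assembly factor was within 1.2-fold with median ratio scaling, without low-UMI barcodes and after thinning. As a mean over barcodes, 109 of all 8507 genes were lower and 131 higher. In that setting 1 core and 1 accessory subunit were higher, 0 accessory subunits were lower and 1 gene for transcription and RNA handling was lower. After thinning, beside 361 of all 8507 genes higher, 1 core subunit was higher and 0 accessory subunits were past 1.2-fold. Of the genes for transcription and RNA handling, 1 was then lower and 3 were higher.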

How the data were processed

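Expression was measured by 3′ single-cell sequencing in 4 libraries of BEAS-2B cells, grouped by the treatment label. The authors deposited raw UMI counts per gene and barcode. The matrix header names Cell Ranger 7.0.1, and the submitters' processing notes name Cell Ranger, STAR and GRCh37. The annotation and the strand and intron settings were not given in the sources used here. GENCODE 29 sequences were matched by gene identifier.

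UMIs were summed over all deposited barcodes and divided by the library total (CPM). Exact Poisson and Clopper-Pearson 95% intervals cover counting error only. With 1 library per dose no test was made. A threshold of 1.2-fold follows the study's methods. Doublets were kept. Totals per library ranged from 211752280 to 285806026 UMIs; counting intervals are narrow, and the spread between replicates is unknown.

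The members and lists were chosen with earlier results of these data known. Named genes were the 7 members, the other 6 mitochondrially encoded genes, the 5 genes most like the heavy-strand sum by each measure, and the 2 highest and 2 lowest of each list at 10 mGy. The genes near MT-ND6 were added later. A gene under this rule is not reported here.

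Alternatives were other scalings, floors, thresholds and barcode filters, and thinning to 1500 UMIs. The ratio calculation was run on simulated counts of 8745 genes, of which 200 were changed, 40 at each fold. For 10 mGy, genes set to 0.5-fold and 2-fold came back at medians of 0.501 and 2. The other 8545 genes were left unchanged. In the data, 53.0% of all genes were over 1.2-fold lower at 10 mGy and 15.4% over 1.2-fold higher. How the scaling behaves when most genes differ was therefore not tested by the simulation. Work was done in Python 3.11.15 with scipy 1.17.1, numpy 2.4.6, matplotlib 3.10.9 and pandas 2.3.3.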

Additional observations from a re-analysis of the deposited data

How the results depend on the processing

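The 8 alternatives of barcodes and scaling kept MT-ND6 below the control at 10 mGy (log2 -2.44 to -1.61) and at 100 mGy (-3.26 to -2.23). On unscaled UMIs per barcode, the 1 Gy values of MT-ND2 (-0.47), MT-ND3 (-0.22), MT-ND4L (-0.40), MT-ND4 (-0.38) and MT-ND6 (-0.018) turned below the control, MT-ND1 was at -0.52 and MT-ND5 at -0.58, and the heavy-strand sum was at -1.16, -1.43 and -0.43 for 10 mGy, 100 mGy and 1 Gy, with 5 members lower and 0 higher at 1 Gy, beside 8265 and 0 of all 8507 genes; the median of all genes was then -0.83, -1.03 and -0.47. In the same order, the heavy-strand sum was at -0.71, -0.76 and -0.051 as a mean over barcodes, at -0.33, -0.40 and 0.026 with median ratio scaling, at -0.71, -0.72 and 0.033 after thinning, at -0.59, -0.75 and 0.051 without barcodes over 2.5 times the median UMI count, and at -0.63, -0.78 and 0.061 in barcodes of at least 200 genes whose mitochondrially encoded UMIs made up at most 20%. It was -0.55 and -0.66 at the low doses when ribosomal protein and mitochondrially encoded genes were left out of the total, and -0.62 at 10 mGy and 0.068 at 1 Gy without low-UMI barcodes. MT-ND6 per heavy-strand UMI was -1.02, -1.59 and 0.40 as a mean over barcodes. It was -1.005 and -1.77 at the low doses after thinning, -1.22 and -1.79 without barcodes of very high UMI count, and -1.32 at 10 mGy without low-UMI barcodes. The number of members over 1.2-fold higher at 1 Gy was 0 with a threshold of 1.5-fold (1 of all genes), and 1, MT-ND6 without MT-ND3, as a mean over barcodes (131), with median ratio scaling (56), without barcodes of very high UMI count (109) and after thinning (361); at 100 mGy it was 1, MT-ND3, with median ratio scaling (2707). MT-ND3 at 100 mGy was above the control also as a mean over barcodes (0.07), after thinning (0.08), without the ribosomal and mitochondrial genes in the total (0.09) and without barcodes of very high UMI count (0.02). On unscaled UMIs per barcode it was below the control and past 1.2-fold, at -0.675. The number of members with lower dispersion at 100 mGy than at 10 mGy was 1 without low-UMI barcodes (0.329% of all genes) and 4 after thinning (38.2%), both chosen after seeing the data. The cause of these shifts was not tested. No paired analysis was possible because each dose has 1 library, and no replicate could be left out. Beside the scaling, the single library per dose limits these values, and counting intervals do not cover either.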
